A study of Mus musculus with 12 samples.

Results

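The organic ion and drug transporters described here are the protein-coding genes of the families Slc22a, Slco, Slc47a, Abcb, Abcc and Abcg, with the cholesterol exporter Abcg1 left out. They were chosen by their symbols, though earlier results of these data were known when the choice was made. The kidney table held 53 of them among 15361 genes and the table of F4/80+ preparations held 49 among 18145, and Abcg3, Abcg4, Slc22a27 and Slc47a2 were in the kidney table alone. RNA was sequenced from mice in which CRISPR-Cas9 had made both copies of the adaptor gene Sh2b3 carry either allele of the coding variant rs3184504. Every mouse had received angiotensin II, a peptide that raises blood pressure, for 4 weeks, and no library came from a mouse without it. The 4 groups of 3 biological replicates were Arg/Arg kidney, Trp/Trp kidney, Arg/Arg F4/80+ and Trp/Trp F4/80+. Kidney libraries were made from homogenized whole kidneys. The F4/80+ libraries came from other kidneys, whose cells were separated on a Percoll gradient and captured with magnetic beads against the macrophage surface protein F4/80. Sex, age and strain are not given in the labels used here.

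Transport proteins of these families move drugs, toxins, urate, hormones and metabolites across cell membranes. In the proximal tubule, the part of the nephron that does most of this work, SLC22 carriers on the blood side take up organic anions and cations, and ABC pumps and SLC47 exchangers on the urine side pass them into the tubular fluid, while other SLC22 carriers there recover urate and carnitine. SLC carriers run on gradients of ions or of other solutes, whereas ABC pumps split ATP.

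Levels are given as CPM, the counts per 1000000 counts of nuclear protein-coding genes in the same library, which numbered 17.79 to 49.99 M in kidney and 6.88 to 11.1 M in F4/80+ libraries. A count of 3 then stands for 0.0600 to 0.169 CPM in kidney and 0.269 to 0.436 CPM in F4/80+ libraries. Total counts were 19.6 to 54.7 M in kidney and 35.9 to 51.6 M in F4/80+ libraries. Most counts of the F4/80+ libraries were thus of mitochondrial genes or of genes that are not protein-coding, unlike those of kidney. The label of the F4/80+ preparations was checked with 10 macrophage markers, whose summed level was 52.5 to 308 CPM there and 272 to 583 CPM in kidney, with none of the 10 at 0 in any library. Adgre1, which encodes F4/80 itself, was at 1.26 to 16.7 CPM in the preparations and 4.11 to 8.32 CPM in kidney, so neither measure was consistently higher in the preparations. The mean of the macrophage marker sum was lower in the preparations, at 180 CPM against 383 CPM in kidney. The sum of 20 proximal tubule markers outside these families was 13536 to 42599 CPM in F4/80+ and 30626 to 34230.0 CPM in kidney libraries, so the preparations carried tubule transcripts within a range that spanned that of whole kidney. Arg/Arg F4/80+ replicate 1 and Trp/Trp F4/80+ replicate 1 stood apart from their groups in these sums, with 21904 CPM of proximal tubule markers against 42599 and 41586 in the former group and 31011 against 13536 and 20329 in the latter. Trp/Trp kidney replicate 1 stood apart in markers of fibroblasts, at 582 CPM against 253 to 272 in the other kidneys, and of lymphocytes, at 85.5 CPM against 3.11 to 4.46. All 12 libraries carried Y-linked transcripts, at a sum of 186 to 363 CPM over 4 genes. In such bulk libraries, fewer cells of a type and less RNA per cell cannot be told apart.

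In kidney the 53 transporters together took 0.743 to 0.834% of nuclear protein-coding counts. Per length of exon, which allows levels of different genes to be compared, 8 genes made up 74.3% of their summed level, and 12 made up 84.3%. Slc22a12 (ENSMUSG00000061742.12, chromosome 19, 6535845 to 6543032 in mm10) stood first. It encodes URAT1, which returns urate from the tubular fluid to the cell. Arg/Arg kidneys had 1379, 1299.7 and 1327 CPM and Trp/Trp kidneys 1230.1, 1279 and 1503 CPM, or 590.5 ± 42.2 CPM per kb of exons (SD, n = 6). Its lowest library, at 544 CPM per kb, was far above the highest library of the gene next in order, at 272.

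The basolateral uptake of organic anions is carried by Slc22a6 and Slc22a8, known as OAT1 and OAT3, which exchange them for dicarboxylates. Slc22a6 (ENSMUSG00000024650.5, chromosome 19, 8618039 to 8628299) was at 192 ± 18.7 and Slc22a8 (ENSMUSG00000063796.9, chromosome 19, 8591254 to 8611835) at 140.2 ± 8.75 CPM per kb (SD, n = 6). Their ranges, 169.9 to 219.9 and 129 to 154, did not overlap. Other organic anion carriers were lower, with Slc22a28 at 60.9 ± 8.28 and its close relative Slc22a30 at 40.8 ± 5.53 CPM per kb (SD, n = 6). Slc22a13, the carrier OAT10 that takes up urate and nicotinate, Slc22a22, a prostaglandin carrier, Slc22a7 (OAT2), Slc22a19 (OAT5) and Slc22a26 had means of 39.8, 38.9, 26.9, 16.3 and 10.2 CPM per kb. Slc22a29 and Slc22a27 were the lowest of them, at 1.35 and 0.258.

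Organic cations enter from the blood through carriers that include Slc22a2 (OCT2) and leave through the proton exchanger Slc47a1 (MATE1). Slc47a1 (ENSMUSG00000010122.14, chromosome 11, 61343401 to 61378345) was at 227 ± 14.2 and Slc22a2 (ENSMUSG00000040966.10, chromosome 17, 12584132 to 12628488) at 107 ± 5.49 CPM per kb (SD, n = 6). The ranges of Slc47a1 and Slc22a6 overlapped, so their order is within the spread of the libraries. Slc22a2 lay below both, and below Slc22a8. Another cation carrier, Slc22a3, was at 0.368 and the second exchanger, Slc47a2, at 0.317 CPM per kb. Slc22a5, the carnitine carrier OCTN2, was at 91.5 ± 3.73 CPM per kb (SD, n = 6), Slc22a4, which takes up ergothioneine, at 21.97, and Slc22a21 at 0.987. Among the remaining SLC22 genes, Slc22a18 (ENSMUSG00000000154.16, chromosome 7, 143473736 to 143499334), an imprinted gene, was second of all transporters at 255 ± 10.6 CPM per kb (SD, n = 6). Slc22a23 was at 13.2, Slc22a17, a receptor for lipocalin-2, at 8.65, Slc22a14 at 0.646 and Slc22a15 at 0.302.

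Of the 8 organic anion transporting polypeptides, Slco1a6 led at 63.2 ± 4.19 CPM per kb (SD, n = 6), followed by Slco1a1 at 26.4, Slco3a1 at 24.8 and Slco4c1, a basolateral carrier of digoxin and thyroid hormone, at 12.4. Slco2b1, Slco4a1, the prostaglandin transporter Slco2a1 and Slco1a4 ranged from 0.412 to 5.59. Among the ABC pumps, Abcc2 (MRP2, ENSMUSG00000025194.5, chromosome 19, 43782192 to 43840740) and Abcg2 (BCRP, ENSMUSG00000029802.13, chromosome 6, 58584523 to 58695676), both of the urine side, were at 59.6 ± 3.12 and 58.3 ± 1.02 CPM per kb (SD, n = 6), with overlapping ranges. Abcc4 (MRP4) was at 17.5, and Abcc5, Abcc10, Abcc6, Abcc1 and Abcc3 ranged from 1.31 to 6.24. P-glycoprotein, which mice encode in a pair of genes, was at 2.55 for Abcb1a and 3.98 for Abcb1b, and the phospholipid pump Abcb4 at 0.0695. The intracellular Abcb8 and Abcb10, of mitochondria, were at 13.92 and 9.24, the lysosomal Abcb9 at 1.76 and Abcb6 at 0.416. Abcc9 and Abcc8, which are sulfonylurea receptors of potassium channels and not pumps, were at 4.90 and 0.0624, and Abcg3 and Abcg4 at 0.245 and 0.0468 CPM per kb. In all, 16 of the 53 genes had a mean of at least 100 CPM in kidney and 6 a mean under 1 CPM.

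In the F4/80+ preparations the 49 transporters took 0.406 to 0.924% of nuclear protein-coding counts, a wider range than in kidney. Shares were 0.553, 0.868 and 0.924% in Arg/Arg and 0.667, 0.406 and 0.546% in Trp/Trp replicates 1 to 3, so the genotypes overlapped. Of the 8 highest genes in kidney, 7 were also among the 8 highest here, in another order. Slc22a6 came first, at 327 ± 126 CPM per kb (SD, n = 6), and below it were Slc22a18 at 244 ± 112, Slc22a8 at 164 ± 68.9, Slc22a2 at 147 ± 53.0, Slc47a1 at 119 ± 42.7 and Slc22a28 at 85.0 ± 34.6. Slc22a12, first in kidney, was eighth at 82.3 ± 35.2. The ranges of neighbours in this order overlapped, but Slc22a6 was above the other 7 in each of the 6 libraries. The plot of levels per library shows wider F4/80+ than kidney values for most genes. Slc22a23 and Abcc4 were exceptions. Slc22a23 was at 13.2 ± 2.06 CPM per kb in kidney and 18.4 ± 1.64 in preparations, and Abcc4 at 17.5 ± 3.28 and 7.40 ± 1.20 (SD, n = 6).

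**Figure D1:**
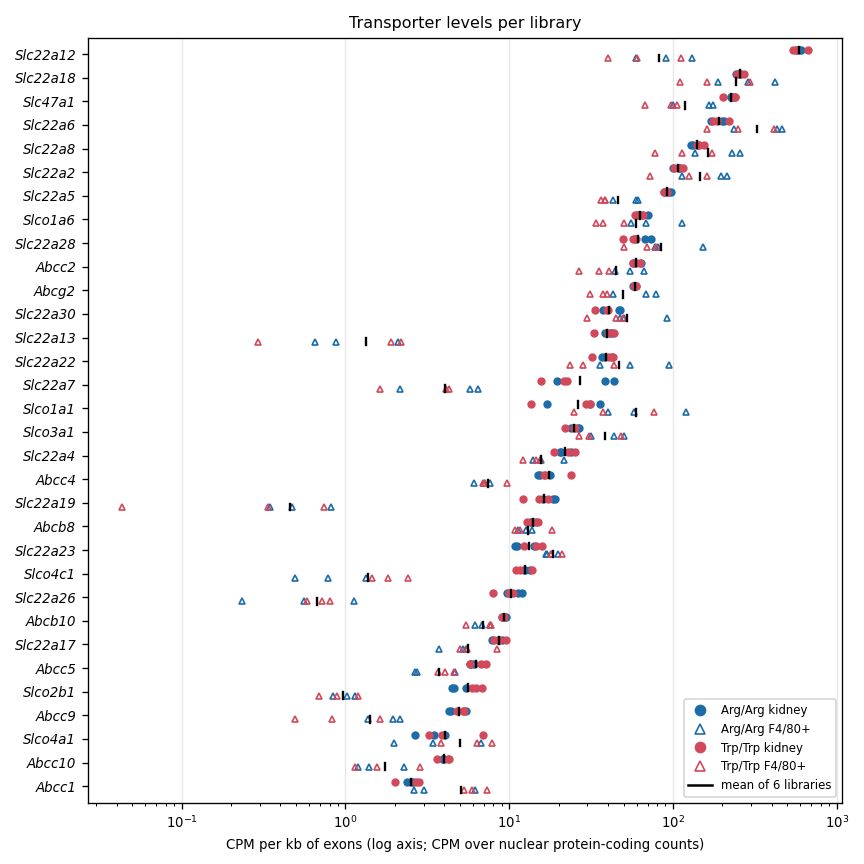
Level of transporters of both tables with a mean of at least 4 CPM per kb in either sample type, on a log axis of CPM per kb of exons. Filled circles are kidney and open triangles F4/80+ libraries, blue for Arg/Arg and red for Trp/Trp, and bars are means of 6 libraries. Slc22a12 was at 544 to 664 in kidney and at 39.9 to 132 in F4/80+ libraries.

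Several of these genes lie side by side. On chromosome 19, 8 of them, in the order Slc22a19, Slc22a26, Slc22a27, Slc22a28, Slc22a29, Slc22a30, Slc22a8 and Slc22a6, fill 955 kb from 7673061 to 8628299 in mm10. Other groups of neighbours are Slc22a3 and Slc22a2 on chromosome 17, Slc22a5, Slc22a21 and Slc22a4 on chromosome 11, Slco1a4, Slco1a1, Slco1a6 and Abcc9 on chromosome 6, and Abcb1a, Abcb1b and Abcb4 on chromosome 5. Neighbours can share sequence as well as a place. Of the distinct stretches of 50 bases in the annotated transcripts of Slc22a28, 53.3% also occurred in those of Slc22a30, and 31.0% of those of Slc22a30 in Slc22a28. The shared part was 36.0% for Slc22a13 with the pseudogene Slc22a13b-ps, 50.01% for Abcb6 with the overlapping gene Gm29253, 26.1% for Slc22a5 with Slc22a21, and 16.3% for Abcb1a with Abcb1b. How the authors counted reads that fit more than one gene, and whether strand was used, is not given in the sources used here, so the split between such genes is uncertain.

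The 250 bases before the transcription start, from RefSeq on GRCm38.p6, the assembly also named mm10, were found for 41 of the 53 genes. Those of Slc22a12 and of 4 genes of the chromosome 19 cluster are printed, in lower case, because these genes include both the 2 that led the order in kidney and F4/80+ preparations and neighbours that differed in opposite directions between them. Motifs were searched on both strands. CAAAGTCCA, a site of HNF4A, was before 0 of the 41 genes and in 0.384% of the 32851 promoters in the table. TGACNNNGC, the core of the antioxidant response element, was before Abcc2, Abcc4, Abcc10, Slc22a27 and Slco4c1 and in 10.2% of all promoters, and TNGCGTG, the core bound by the aryl hydrocarbon receptor, was before Abcc4 and in 4.10%. Each match is a match of letters only. The promoters of Slc22a28 and Slc22a30 were identical at 93.0% of aligned positions, that of Slc22a19 at 60.4% to Slc22a28, and Slc22a6 and Slc22a12 at 45.4%.
Slc22a6, chr19:8617746-8617995, plus strand: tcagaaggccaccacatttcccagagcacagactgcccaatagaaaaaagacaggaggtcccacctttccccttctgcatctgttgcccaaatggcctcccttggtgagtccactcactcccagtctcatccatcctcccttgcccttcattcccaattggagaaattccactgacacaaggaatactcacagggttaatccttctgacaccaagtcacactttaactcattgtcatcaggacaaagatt
Slc22a19, chr19:7711311-7711560, minus strand: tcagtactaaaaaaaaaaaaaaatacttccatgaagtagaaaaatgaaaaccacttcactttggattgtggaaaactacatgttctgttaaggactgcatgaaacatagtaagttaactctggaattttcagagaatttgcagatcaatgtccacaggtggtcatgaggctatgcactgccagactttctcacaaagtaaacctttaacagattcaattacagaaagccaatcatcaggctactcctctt
Slc22a28, chr19:8131983-8132232, minus strand: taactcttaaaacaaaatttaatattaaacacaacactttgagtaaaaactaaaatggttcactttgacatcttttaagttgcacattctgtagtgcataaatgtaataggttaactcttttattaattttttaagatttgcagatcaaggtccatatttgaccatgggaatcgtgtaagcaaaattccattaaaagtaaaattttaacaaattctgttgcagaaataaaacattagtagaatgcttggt
Slc22a30, chr19:8405106-8405355, minus strand: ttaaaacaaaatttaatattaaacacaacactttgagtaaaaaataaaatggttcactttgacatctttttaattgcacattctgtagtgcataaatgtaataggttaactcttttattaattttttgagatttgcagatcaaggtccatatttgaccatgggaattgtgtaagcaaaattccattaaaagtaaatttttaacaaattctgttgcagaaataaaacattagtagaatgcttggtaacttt
Slc22a12, chr19:6543071-6543320, minus strand: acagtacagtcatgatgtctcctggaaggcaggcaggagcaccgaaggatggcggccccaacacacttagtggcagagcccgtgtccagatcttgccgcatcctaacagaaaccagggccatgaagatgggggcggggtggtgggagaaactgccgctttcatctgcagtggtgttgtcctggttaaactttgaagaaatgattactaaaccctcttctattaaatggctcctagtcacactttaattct

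The comparison of sample types asked which transporters were higher or lower in F4/80+ preparations than in whole kidney at the same genotype. Sample type, table and library preparation cannot be told apart here. Of the 49 transporters, 36 passed an adjusted p of 0.05 in edgeR's quasi-likelihood test, where 64.3% of the 13578 genes tested did. They divided into 12 higher and 24 lower in F4/80+ preparations, beside 32.3% and 32% of all genes, with a median log2 fold change of -0.32 against -0.01 for all genes. The libraries of the sample types did not overlap for 23 of the 49 genes, beside 42.2% of all genes. Of these, 3 lay above and 20 below kidney, where 15.2% and 27% of all genes lay above and below. The largest differences by far were of carriers that were lower, while some genes of the same cluster or the same membrane were higher or little different. Others there were lower as well. Slc22a29 of the chromosome 19 cluster had a log2 fold change of -2.19 (edgeR adjusted p = 0.000122), at only 0.126 to 1.45 CPM in preparations. Slc47a1 and Slc22a5, given below, were also lower.

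Slc22a19, first in the chromosome 19 cluster, had 104, 99.9 and 86.8 CPM in Arg/Arg and 66.3, 82.1 and 94.0 CPM in Trp/Trp kidneys. Preparations had 1.89, 4.42 and 2.54 CPM in Arg/Arg and 4.04, 0.235 and 1.84 CPM in Trp/Trp. Every F4/80+ library was thus far below every kidney, and Trp/Trp F4/80+ replicate 2 held 2 counts of it. The difference was 31.7-fold lower, a log2 fold change of -4.99 ± 0.33 (SE, edgeR adjusted p = 4.03e-08). Slc22a13 (ENSMUSG00000074028.4, chromosome 9, 119192974 to 119209098) was at 82.0, 85.0 and 77.2 CPM in Arg/Arg and 80.3, 65.7 and 87.3 CPM in Trp/Trp kidneys. Preparations had 1.31, 4.17 and 1.76 CPM in Arg/Arg and 4.40, 0.587 and 3.81 CPM in Trp/Trp. No preparation came near a kidney, and the gene was 26.9-fold lower there (-4.75 ± 0.32, edgeR adjusted p = 4.21e-08). Slc22a26 fell from 23.4 to 35.3 CPM over the kidneys to 0.685 to 3.34 CPM, a log2 fold change of -3.86 ± 0.22 (edgeR adjusted p = 1.3e-08).

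Slc22a12 was at 134, 298 and 205 CPM in Arg/Arg and 254, 90.2 and 137 CPM in Trp/Trp preparations, below each of the 6 kidneys given above. The log2 fold change was -2.71 ± 0.27, or 6.53-fold lower (edgeR adjusted p = 1.57e-06). Slc22a6, by contrast, was at 945, 1846 and 1721 CPM in Arg/Arg and 1659, 642 and 992 CPM in Trp/Trp preparations. Kidneys had 812, 790.4 and 677 CPM in Arg/Arg and 701, 739 and 876 CPM in Trp/Trp. Its libraries overlapped, with Trp/Trp replicate 2 lowest of all 12, and it rose by 0.89 on the log2 scale (SE 0.24, 1.86-fold, edgeR adjusted p = 0.00551). The ratio of Slc22a12 to Slc22a6 per kb within a library separated the sample types, at 2.89 to 3.45 in kidneys and 0.210 to 0.284 in preparations. Such a ratio needs no scaling between libraries. Slc22a7 was 5.81-fold lower (-2.54 ± 0.31, edgeR adjusted p = 9.97e-06), and its ratio to Slc22a6 was 0.0885 to 0.220 in kidneys and 0.00904 to 0.0173 in preparations. Slc22a8 did not pass (0.33 ± 0.21, edgeR adjusted p = 0.193) except without Arg/Arg F4/80+ replicate 1, at 0.46, and its ratio to Slc22a6 was 0.666 to 0.798 in kidneys and 0.414 to 0.577 in preparations.

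Slc22a28 and Slc22a30 moved together, with log2 fold changes of 0.58 ± 0.18 and 0.46 ± 0.19 (edgeR adjusted p = 0.0126 and 0.0417). The per-length ratio of the former to the latter was 1.41 to 1.59 in kidneys and 1.55 to 1.71 in preparations, in the presence of the shared sequence given above. Slc22a30 no longer passed when any 1 of 9 of the 12 libraries was left out. Of the 11 organic anion carriers tested, 9 passed, 3 higher and 6 lower, beside 64.3%, 32.3% and 32% of all genes.

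Among cation carriers, Slc22a2 rose by 0.57 (SE 0.21, edgeR adjusted p = 0.0291) and no longer passed when any 1 of 8 libraries was left out. The exporter Slc47a1 had 787, 760.4 and 761 CPM in Arg/Arg and 681, 807 and 811 CPM in Trp/Trp kidneys. Preparations had 337, 565 and 592 CPM in Arg/Arg and 356, 229 and 328 CPM in Trp/Trp. No preparation reached the lowest kidney, and Slc47a1 was 1.79-fold lower (-0.84 ± 0.18, edgeR adjusted p = 0.00111). Carnitine carrier Slc22a5 was lower by 1.83-fold in the same way (-0.88 ± 0.12, edgeR adjusted p = 3.51e-05). Slc22a18 had 0.05 ± 0.25, without a call, and was negative when scaled by library size alone, at -0.11.

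Of the 8 SLCO genes, 3 rose and 3 fell, beside 32.3% and 32% of all genes. Slco4c1 (ENSMUSG00000040693.7, chromosome 1, 96816270 to 96872171) had 53.9 to 67.3 CPM over the 6 kidneys and 2.40 to 11.7 CPM over the 6 preparations, each of which lay far below each kidney. It was 9.06-fold lower (-3.18 ± 0.16, edgeR adjusted p = 5.03e-09), and Slco2b1 was 5.31-fold lower. Slco1a1 had the largest rise among the 49 genes, 2.42-fold (1.28 ± 0.35, edgeR adjusted p = 0.00573), with values of 72.0, 159.6 and 188 CPM as the lowest, median and highest kidney and 131, 258 and 634 CPM in preparations, which overlapped. Slco3a1 rose by 1.70-fold (edgeR adjusted p = 0.0018) and its libraries did not overlap, though only just, with 185 to 224 CPM in kidneys and 224 to 423 CPM in preparations. Slco1a6 had -0.02 ± 0.18 (edgeR adjusted p = 0.921), a sign that turned positive when any of 6 single libraries was left out.

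Of the 7 ABCC pumps, 5 fell, where 32% of all genes did, with Abcc3 lowest at -1.86 ± 0.29, a call lost in limma voom (adjusted p = 0.116), and Abcc1, the export pump MRP1, rose 2.12-fold (1.08 ± 0.15, edgeR adjusted p = 3.91e-05). Abcc1 had 35.9, 38.9 and 37.7 CPM in Arg/Arg and 42.7, 40.5 and 30.2 CPM in Trp/Trp kidneys. Preparations had 92.9, 45.5 and 39.7 CPM in Arg/Arg and 80.3, 110.1 and 89.4 CPM in Trp/Trp. All preparations but Arg/Arg replicate 3 exceeded every kidney, and that one lay among the kidneys. Abcc2 and Abcg2 did not pass, at -0.32 ± 0.15 and -0.14 ± 0.16 (edgeR adjusted p = 0.0769 and 0.463), and Abcc2 passed as lower without Arg/Arg F4/80+ replicate 3, at -0.41, or without Trp/Trp F4/80+ replicate 1, at -0.40, and in limma voom (adjusted p = 0.0283). P-glycoprotein fell in both genes, 4.92-fold for Abcb1b and 3.09-fold for Abcb1a. Among intracellular ABCB genes, Abcb6 rose by 0.81 (edgeR adjusted p = 0.00832), Abcb9 and Abcb10 fell, and Abcb8 did not pass. Abcb6 shares sequence with Gm29253, as given above, so its counts are uncertain.

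**Figure D2:**
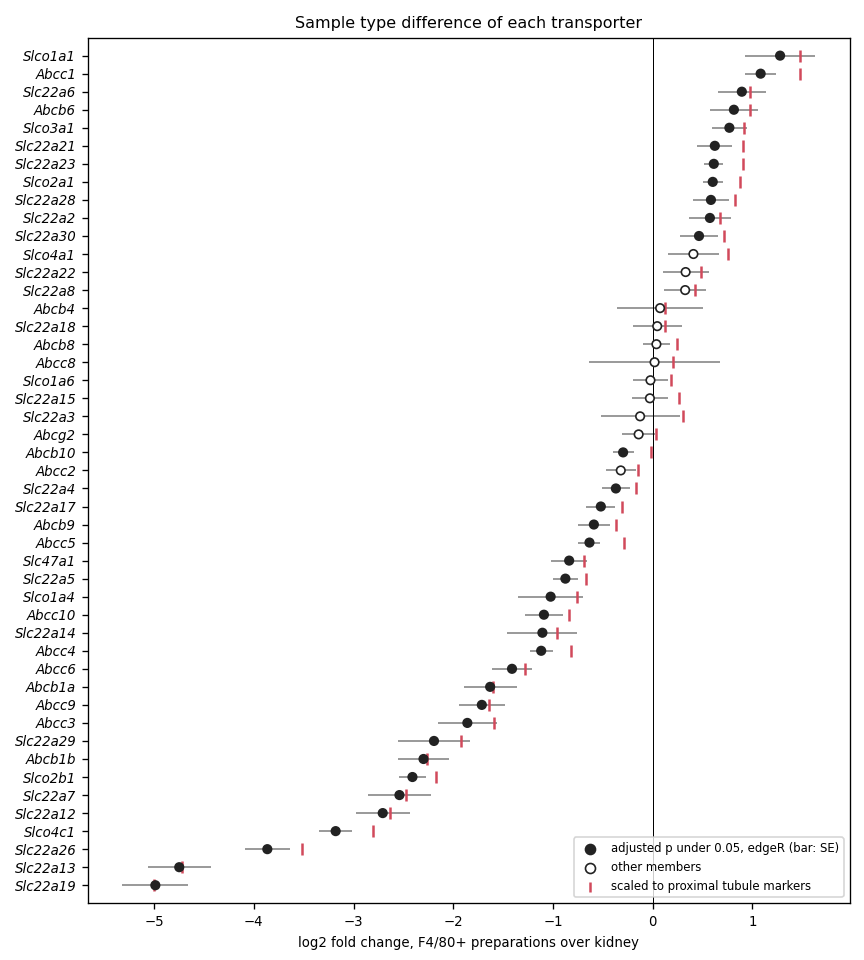
Log2 fold change of 47 of the 49 transporters, F4/80+ preparations over kidney, with its SE as a bar. Filled circles passed an adjusted p of 0.05 in edgeR, open circles did not, and red ticks are the same value after scaling libraries to 20 proximal tubule markers. Slc22a19 lies at -4.99 and Slco1a1 at 1.28.

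Markers of the tubule also differed between sample types. Of the 20 proximal tubule markers, 4 were higher and 10 lower in F4/80+ preparations, beside 32.3% and 32% of all genes. Their median was -0.90 and their range from -2.92 to 0.83, so those markers moved in both directions. Summed distal nephron markers were 5210.0 to 19688 CPM in preparations and 6935 to 7583 CPM in kidneys. Their part in the results for the transporters was not tested. With libraries scaled to the proximal tubule markers, 28 transporters passed, 11 higher and 17 lower, and over all genes 3470 (25.6%) were higher and 1806 (13.3%) lower in place of 4390 and 4344. The sign of Slco1a6 and Abcg2 turned, to 0.18 and 0.03, whereas Slc22a19, Slc22a13 and Slc22a12 stayed at -5.00, -4.72 and -2.64.

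The first genotype comparison set the kidneys of Trp/Trp mice against those of Arg/Arg mice. Most transporter levels there had a narrow spread, and no transporter passed the test. The edgeR test called 0 of the 52 transporters tested and 0 of 14464 genes (0%), and DESeq2 called 0 transporters and 15 genes (0.0977%). An unadjusted p under 0.05 was reached by 3 transporters, beside 5.71% of all genes, and in DESeq2 by 5, beside 5.01%. The median log2 fold change was 0.01, with 29 positive and 23 negative, where 50.6% and 49.4% of all genes were. The authors' deposited table gave 51 of the 53 transporters an adjusted p, 0 of them under 0.05, with 0.150 as the smallest. Without Trp/Trp replicate 1, the kidney that stood apart, 0 were called by edgeR and 3 had an unadjusted p under 0.05, beside 4.95% of all genes.

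Slco2b1 (ENSMUSG00000030737.17, chromosome 7, 99657804 to 99711340), a carrier of steroid sulfates and statins, had the smallest p. Its level was 26.6, 27.5 and 32.5 CPM in Arg/Arg and 40.8, 35.5 and 37.2 CPM in Trp/Trp kidneys. Every Trp/Trp kidney exceeded every Arg/Arg kidney, by 1.29-fold on average (0.37 ± 0.08, edgeR unadjusted p = 0.00161, adjusted p = 0.843). Leaving out each library in turn gave 0.32 to 0.46. Summed macrophage markers also did not overlap, at 323, 321 and 272 CPM in Arg/Arg and 583, 364 and 433 CPM in Trp/Trp kidneys. The sums of proximal tubule markers overlapped. The part of these markers in the kidney values was not tested.

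Slc22a7 had 80.2, 91.9 and 41.1 CPM in Arg/Arg and 32.7, 45.2 and 47.5 CPM in Trp/Trp kidneys. A pair of Arg/Arg kidneys were high and the third lay within the Trp/Trp range, and the log2 fold change of -0.79 ± 0.27 did not pass (edgeR unadjusted p = 0.0167, adjusted p = 0.843). Slc22a28 had -0.28 ± 0.10 (edgeR unadjusted p = 0.0205, adjusted p = 0.843), with 146, 135 and 118 CPM in Arg/Arg and 99.5, 114 and 119 CPM in Trp/Trp kidneys, which overlapped by 1 library of each genotype. Abcb9 and Slc22a19 came after these, with 0.23 and -0.28. Of the 12 organic anion carriers, 9 had a negative value and 2 an unadjusted p under 0.05, beside 49.4% and 5.71% of all genes. Some of these carriers are neighbours that share sequence, as given above, so they are not independent of each other. The major carriers of the tubule differed little: the value was -0.01 ± 0.09 for Slc22a12, 0.01 ± 0.11 for Slc22a6, 0.10 ± 0.07 for Slc22a8, -0.02 ± 0.09 for Slc47a1 and -0.0032 ± 0.05 for Abcg2 (SE, edgeR). The kidneys of the genotypes did not overlap for Slco2b1, Abcc6 and Abcb9, which were higher in Trp/Trp, and for 0 transporters in the other direction, where 6.59% and 3.67% of all genes were without overlap.

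The second genotype comparison was made in the F4/80+ preparations. Most transporters had lower values in Trp/Trp than in Arg/Arg preparations and the others had higher ones, but none passed. edgeR called 0 of the 45 transporters tested and 0 of 15225 genes (0%), and DESeq2 called 0 transporters and 14 genes (0.226% of those with an adjusted p). With edgeR 13 transporters reached an unadjusted p under 0.05, beside 8.04% of all genes. They were 1 higher and 12 lower, where 4.43% and 3.61% of all genes were. The median log2 fold change of the transporters was -0.43, with 31 of 45 negative, against 0.01 and 48.9% for all genes. In DESeq2 17 transporters had an unadjusted p under 0.05, beside 8.39% of all genes. The smallest adjusted p was 0.605 in edgeR and 0.0824 in DESeq2, and 0.0743 in the authors' deposited table, for Slco1a6. That deposited table gave an adjusted p to only 22 of its 49 transporters, so the others could not be called there.

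Slco1a6 (ENSMUSG00000079262.3, chromosome 6, 142085761 to 142208521) had 212, 259.7 and 433 CPM in Arg/Arg and 129, 142 and 190.2 CPM in Trp/Trp preparations. The Arg/Arg libraries all lay above the Trp/Trp libraries, by 2.19-fold in the fit (-1.13 ± 0.33, edgeR unadjusted p = 0.00524, adjusted p = 0.605). In kidney its value was -0.09 ± 0.08. Abcg2, an exporter of urate and of many drugs, had 349, 561 and 644 CPM in Arg/Arg and 305, 255 and 323 CPM in Trp/Trp preparations. Its genotypes did not overlap, and its log2 fold change was -0.97 ± 0.32 (edgeR unadjusted p = 0.01, adjusted p = 0.605), or 0.00 with libraries scaled to proximal tubule markers. That scaling shifted the values of nearly all genes upward, and 96.8% of all genes were positive under it.

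Abcc2 had 378, 465 and 571 CPM in Arg/Arg and 345, 229 and 299.7 CPM in Trp/Trp preparations, again without overlap. The log2 fold change was -0.83 ± 0.30 (edgeR unadjusted p = 0.0168) and turned to 0.03 with the tubule scaling. Slc22a5 had 133, 182 and 188 CPM in Arg/Arg and 118, 111 and 118 CPM in Trp/Trp preparations, with -0.69 ± 0.26 (edgeR unadjusted p = 0.0203), and turned to 0.26. The lowest Arg/Arg library of Slc22a5 was close above the highest Trp/Trp library. Slc22a22 had 87.7, 133 and 232 CPM in Arg/Arg and 68.8, 57.6 and 106 CPM in Trp/Trp preparations, with overlap, and -1.13 ± 0.39 (edgeR unadjusted p = 0.0148). Each of these had an edgeR adjusted p of 0.605.

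Slco4c1 went the other way. It had 6.54, 2.40 and 3.82 CPM in Arg/Arg and 7.09, 11.7 and 8.93 CPM in Trp/Trp preparations, so the Trp/Trp libraries were all higher, by 2.02-fold (1.02 ± 0.36, edgeR unadjusted p = 0.0164, adjusted p = 0.605). Of the tested transporters, Slco4c1, Abcc3, Abcb9 and Slco2a1 were without overlap and higher in Trp/Trp, beside 7.19% of all genes. Slc22a5, Abcc2, Abcg2 and Slco1a6 were without overlap and lower, beside 3.33% of all genes. Abcc1, whose values are given above, had 0.56 ± 0.26 (edgeR unadjusted p = 0.053), with overlap through Arg/Arg replicate 1.

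**Figure D3:**
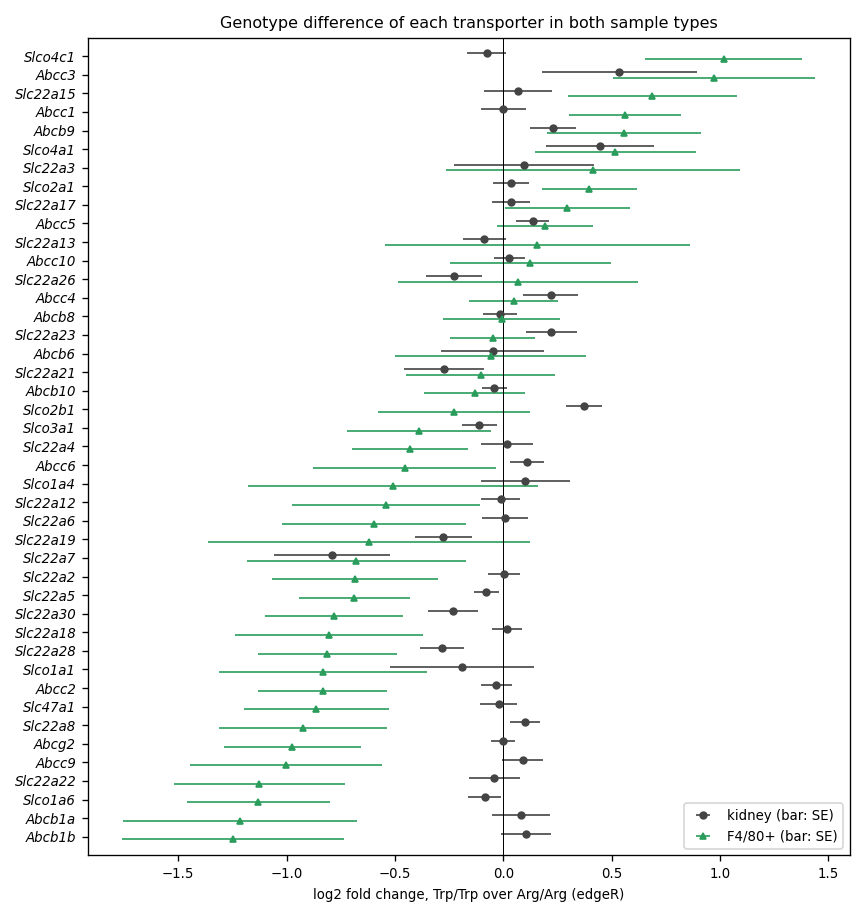
Log2 fold change of 43 of the 45 transporters tested in both sample types, Trp/Trp over Arg/Arg, with its SE as a bar. Black circles are kidney and green triangles F4/80+ preparations. Kidney values lie between -0.79 and 0.53, and values in the preparations between -1.25 and 1.02.

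Marker levels of the nephron also differed between the preparations. Proximal tubule markers summed to 21904, 42599 and 41586 CPM in Arg/Arg and 31011, 13536 and 20329 CPM in Trp/Trp preparations, and all 20 had a negative log2 fold change, with a median of -0.94 and 11 at an unadjusted p under 0.05 in edgeR. Distal nephron and collecting duct markers summed to 13383, 5559 and 5210.0 CPM in Arg/Arg and 12518, 19688 and 10709 CPM in Trp/Trp preparations. In the plot of marker sums, Slc22a6, Slc22a8, Abcc2, Abcg2, Slco1a6 and Slc47a1 are set beside the former and Slco4c1, Abcc1, Slco2a1, Slco4a1 and Abcc3 beside the latter, a grouping made after these values were seen. The order of libraries differed between genes and between markers. Trp/Trp replicate 1 had a higher proximal tubule sum than Arg/Arg replicate 1 and Trp/Trp replicate 3. Abcg2 was lower there, at 305 CPM, than in either, and Slco1a6 was at its lowest, 129 CPM. In Arg/Arg replicate 1, Trp/Trp replicate 1 and Trp/Trp replicate 3, 4 markers of the early proximal tubule summed to 480, 327 and 323 CPM. In the same order, 4 markers of the late proximal tubule summed to 1299, 1546 and 1439 CPM. The part of these markers in the genotype values was not tested. With libraries scaled to the proximal tubule markers, which moved the median of all genes to 0.85, the transporters had a median of 0.45 and 37 of 45 were positive, beside 96.8% of all genes, with Slco1a6 at -0.12 and Slc22a22 at -0.12. Macrophage markers summed to 197, 67.5 and 52.5 CPM in Arg/Arg and 184, 273 and 308 CPM in Trp/Trp preparations.

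**Figure D4:**
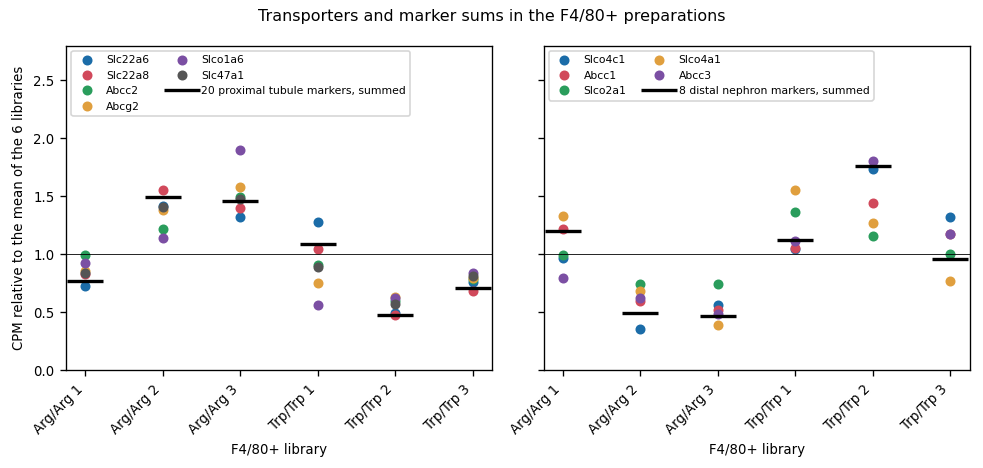
CPM of transporters in each F4/80+ library, relative to the mean of the 6 libraries, beside the summed level of 20 proximal tubule markers (left) and of 8 distal nephron markers (right), drawn as black bars. In Arg/Arg replicates 2 and 3 the proximal tubule sums, 42599 and 41586 CPM, and the transporters on the left are high, and the distal sums, 5559 and 5210 CPM, and those on the right are low. The genes of each panel were chosen after these values were seen, so their likeness to the sums tests nothing.

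Single libraries weighed on these values. Without Arg/Arg replicate 1, the transporters at an unadjusted p under 0.05 numbered 22 of 46 (19 lower), beside 17.5% of all genes, and without Arg/Arg replicate 3 they numbered 4 of 47, beside 2.31%, with 0 called by edgeR either way. Without Trp/Trp replicate 2 there were 3 of 47, beside 5.24% of all genes, and without Trp/Trp replicate 1 there were 19 of 46, beside 11.4%.

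The difference of the genotype effects between sample types was tested as an interaction over all 12 libraries. edgeR called 0 of the 49 transporters and 0 of 13578 genes (0%), DESeq2 called 0 and 7 (0.051%), and with each tool 13 transporters had an unadjusted p under 0.05, beside 6.78% of all genes in edgeR and 8.89% in DESeq2. The effect in F4/80+ preparations minus that in kidney was 1.08 ± 0.32 for Slco4c1 (edgeR unadjusted p = 0.00484), -0.99 ± 0.33 for Abcg2 (0.00929), -1.06 ± 0.36 for Slco1a6 (0.0111) and -0.82 ± 0.30 for Abcc2 (0.0165). The adjusted p of these was 0.684. This fit took the same spread between replicates for both sample types, a common coefficient of variation of 0.19. Fitted alone, kidney had 0.101 and the preparations 0.28. The noise of the preparations is thus understated here, and p-values and calls of the interaction may be too favourable, also with a library left out. Without Arg/Arg F4/80+ replicate 1, the library whose marker sums stood apart in its group, 580 genes (4.23%) passed and 8 transporters with them. Slco4c1 and Abcc1 were then higher, at 1.38 and 0.90, and Slc47a1, Slc22a5, Slc22a22, Abcc2, Abcg2 and Slco1a6 lower, at -0.83 to -1.43. That fit rests on a pair of Arg/Arg preparations, both high in proximal tubule markers.

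Of 22 partners and regulators of these transporters, 20 were tested between sample types and 11 passed, 4 higher and 7 lower, beside 64.3%, 32.3% and 32% of all genes. Pdzk1, a scaffold that holds Slc22a12 and other carriers at the apical membrane, was 4.42-fold lower in F4/80+ preparations (-2.14 ± 0.21, edgeR adjusted p = 1.37e-06). Kidneys had 565, 543 and 531 CPM in Arg/Arg and 506, 554 and 556 CPM in Trp/Trp. Preparations had 92.5, 159 and 166 CPM in Arg/Arg and 125, 58.5 and 82.2 CPM in Trp/Trp, so all preparations lay below all kidneys. Nr1i2, the drug-sensing receptor PXR, fell by 3.07-fold and the estrogen receptor Esr1 by 2.18-fold, and Nfe2l2 (NRF2), which acts on antioxidant response elements, rose by 2.23-fold.

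Between genotypes the partner with the smallest p was Nr1h4, the bile acid receptor FXR, in both sample types. Kidneys had 194, 176 and 168 CPM in Arg/Arg and 119, 149.6 and 130.0 CPM in Trp/Trp, without overlap (-0.45 ± 0.10, edgeR unadjusted p = 0.00128, adjusted p = 0.843), and DESeq2 called it (adjusted p = 0.0133). The preparations had 177, 286 and 359.6 CPM in Arg/Arg and 175, 107 and 119 CPM in Trp/Trp, where the lowest Arg/Arg library was just above the highest Trp/Trp library (-1.19 ± 0.35, edgeR unadjusted p = 0.00562, adjusted p = 0.605). There 6 of 20 partners had an unadjusted p under 0.05 in edgeR, beside 8.04% of all genes, all lower and 0 called, with Hnf4a at -0.81 ± 0.36 and Hnf4g at -0.81 ± 0.36 among them, and in kidney 1 of 21 did, beside 5.71%.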

How the data were processed

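PolyA-selected RNA of 6 whole kidneys and 6 F4/80+ preparations was sequenced. Per the file headers, the deposited tables hold raw counts per gene for each library and the authors' DESeq2 columns, namely the mean normalized signal, the log2 fold change, its ratio, the SE and the test statistic (a score), and the p-value and adjusted p-value. The kidney log2 values of that deposited table were in the direction Arg/Arg over Trp/Trp and were turned. Per the submitters' processing notes STAR, DRAGEN, DESeq2 and mm10 were used. The counting method, annotation release and strand setting are not given in the sources used here, and coordinates of all 53 transporters matched GENCODE M21. Counts of nuclear protein-coding genes were divided by their sum for CPM, and by the exon length for CPM per kb.

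Comparisons between groups used the deposited counts with edgeR 4.0.16 in R 4.3.3, with TMM scaling and the quasi-likelihood test on all genes that passed filterByExpr (minimum count 10, minimum total 15). P-values were adjusted by Benjamini-Hochberg over all genes tested. The SE is the absolute log2 fold change divided by the square root of F. Genotypes were fitted within each table, and sample type (at equal weight of genotypes) and the interaction over the 13733 nuclear protein-coding genes in both tables before filtering. Alternatives were DESeq2 1.42.0, other scalings, no filter, a replicate block and leaving out each library, and limma 3.58.1 voom was added after the data were seen. In simulated data with changed genes of known size the test recovered 83.3% of 2-fold changes between kidney genotypes over 14386 genes, 10.9% between F4/80+ genotypes over 14734, 83.6% between sample types over 13493 and 10.6% in the interaction over 13504. Few genes were changed there, in equal parts up and down, and each gene varied on its own. The real sample types, between which 64.3% of genes passed, differ from that setting, so the rates may not hold for these data. P-values measure the spread between these libraries, which the labels call biological replicates. All replicate pairs differed by more than counting noise.

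The transporters and the marker and partner lists were chosen with earlier results of these data known. Named were the genes with the highest level per length, the 6 with the smallest p in each genotype comparison, the 6 largest called sample type differences in each direction and up to 4 partners per comparison, and others are given by their values where their role is described. Some genes and motifs that these rules cover are not reported here and are not drawn in the figures.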

Additional observations from a re-analysis of the deposited data

Results flagged for a closer look

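The CPM of each transporter over the 6 libraries of a sample type was examined, 102 sets in all, and in 8 of them 1 library lay apart from the other 5 by more than Dixon's 95% critical value. Chance marks about 1 in 20 such sets, and sets of the same libraries are not independent. In Arg/Arg F4/80+ replicate 3, Slc22a28 was at 303.7 CPM against 100.3 to 163.4 in the other preparations, and Slc22a30, which shares sequence with it, was at 310.9 CPM against 100.8 to 169.2. In the same library Slc22a4 was at 55.3 CPM against 31.1 to 39.9. In Trp/Trp kidney replicate 1, the kidney with the high fibroblast and lymphocyte markers, Abcc3 was at 15.1 CPM against 4.24 to 7.16 in the other kidneys, Abcc4 at 152.9 CPM against 95.8 to 113.1, Slco4a1 at 33.3 CPM against 12.8 to 19.5 and Slco2a1 at 41.4 CPM against 32.9 to 35.7. In Trp/Trp kidney replicate 2, Abcc6 was at 23.8 CPM against 20.2 to 21.4.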

How the results depend on the processing

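No transporter was called between genotypes by edgeR or DESeq2 in kidney or F4/80+ preparations under any alternative run, leaving out each library included. DESeq2 called 15 genes in kidney, 14 in F4/80+ preparations and 7 in the interaction, where edgeR called 0. With libraries scaled to proximal tubule markers, 5276 genes passed between sample types in place of 8734. Between F4/80+ genotypes the same scaling made 96.8% of all genes positive. It turned the F4/80+ genotype value of Abcg2 to 0.0010, of Abcc2 to 0.0305 and of Slc22a5 to 0.264. It also turned the sample type value of Slco1a6 to 0.18 and of Abcg2 to 0.0298. The interaction value of Abcc2 turned to 0.0601 and that of Slc22a5 to 0.337. Slc22a18 turned between sample types to -0.11 with library size only and to -0.0806 with limma voom, which was chosen after seeing the data, and leaving out single libraries gave values down to -0.21 (without Trp/Trp F4/80+ replicate 1) and -0.14 (without Arg/Arg F4/80+ replicate 2), and up to 0.187 (without Arg/Arg F4/80+ replicate 1). In voom 33 of the 36 calls between sample types were kept, while Abcc3, Slc22a4 and Slc22a14 lost theirs (adjusted p = 0.116, 0.0721 and 0.118) and Abcc2 gained one (0.0283). Slco1a6 lay between -0.22 and 0.10 as single libraries were left out. In the interaction 0 to 580 genes and 0 to 8 transporters were called as each library was left out, with 580 and 8 without Arg/Arg F4/80+ replicate 1 and 1 gene and 0 transporters without Trp/Trp F4/80+ replicate 1. The causes were not tested. Same-numbered libraries correlated at -0.077 to -0.011 in kidney and -0.491 to 0.178 in F4/80+ preparations, so the numbers were not taken to pair them. With the replicate block 32 transporters in place of 36 and 8177 genes in place of 8734 passed between sample types, Slc22a18 was at -0.0717, and 0 genes passed in the other comparisons. Of the values of single genes under alternatives, 633 kept direction and side of the threshold, 18 turned, 15 gained a call and 10 lost it. The small number of nuclear protein-coding counts in F4/80+ libraries, where 3 counts are up to 0.436 CPM, limits the lowest genes.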
